A study of Homo sapiens with 90 samples.

Results

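The canonical histone genes were followed in BxPC-3 cells, an established line from a human pancreatic adenocarcinoma, with and without cetuximab, which is an antibody against the receptor EGFR. Members were the genes whose symbol starts with H1-, H2AC, H2BC, H3C or H4C followed by a number, and each gene was represented by its probe with the highest mean over all arrays. There were 72 such genes among 20036 genes with a symbol of their own on the array (Illumina HumanHT-12 v4), and 30 of them lay over 4.24, the median of the probe means and the limit for testing, which 12735 genes passed in all. RNA was hybridised to 90 arrays, 3 for each of 15 times in each arm: time 0, 5, 10 and 30 min, 1, 2, 4 and 8 h, and days 1 to 7. Both arms had been starved of serum before time 0; the cetuximab arm received 10 µg/ml and the other arm is labelled a negative control. The labels do not say whether the 3 arrays of a group came from separate cultures, so p-values measure only the spread between these arrays.

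Histones are the proteins around which DNA is wound. Pairs of H2A, H2B, H3 and H4 form the core of the nucleosome, and H1 binds the DNA where it enters and leaves that core. The genes called canonical lie in clusters on a few chromosomes, carry no introns, and in dividing cells are transcribed chiefly in S phase, when newly made DNA needs new nucleosomes. Their mRNAs mostly end in a stem-loop bound by SLBP in place of a poly(A) tail, although some of them also give polyadenylated transcripts, mainly in cells that have left the cycle. The labelling kit primes on poly(A) tails, so the share of each histone mRNA that the arrays could see is not known. The arrays averaged over all cells of a culture, so fewer cells that express a gene and less RNA per cell cannot be told apart.

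The epithelial identity of the line was borne out by its markers. The mean over all arrays was 12.0 for KRT19, 10.5 for KRT7 and 10.2 for EPCAM, whereas 14 of 15 markers of fibroblasts, blood cells, endothelium and exocrine pancreas had means from 3.87 to 4.61 and CD14 had 5.56. All levels are given on the log2 scale of the deposited values, in which 60.8% of all values lay between 3.5 and 4.5, so a level in that range cannot be told from background. Levels belong to single probes and are compared only within a gene.

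Of the 30 members over the limit, 4 encode H1, 8 encode H2A, 7 encode H2B, 4 encode H3 and 7 encode H4; 18 lie on chromosome 6, 10 on chromosome 1, and 1 each on chromosomes 3 and 12. The other 42 had means from 3.78 to 4.23, namely 5 of H1, 9 of H2A, 11 of H2B, 9 of H3 and 8 of H4. H1-7 lay just inside the limit with a mean of 4.25 and H1-3 just outside with 4.23. H4C3 had the highest mean of its type at 11.4, H2BC12 of H2B at 10.8, H1-2 of H1 at 8.15, H2AC18 of H2A at 8.15 and H3C13 of H3 at 4.82. All 4 H3 members thus lay close to the background. One probe that carried both H3C11 and H3C6 named no gene.

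H4C3, the member with the highest mean, had no promoter entry. The promoters below are examples from genes of H2B, H2A, H4 and H1. Each is the 250 bases before the transcription start of H2BC21, H2AC18, H4C14 or H1-2, from RefSeq on GRCh38.p14 and read on the strand of the gene. Capitals mark 4 motifs on either strand. These are the CCAAT box (CCAAT), the TATA box (TATAAA), the octamer bound by POU2F1 (ATTTGCAT) and the H1 box (AAACACA). In H2BC21 no match overlaps another.
H2BC21: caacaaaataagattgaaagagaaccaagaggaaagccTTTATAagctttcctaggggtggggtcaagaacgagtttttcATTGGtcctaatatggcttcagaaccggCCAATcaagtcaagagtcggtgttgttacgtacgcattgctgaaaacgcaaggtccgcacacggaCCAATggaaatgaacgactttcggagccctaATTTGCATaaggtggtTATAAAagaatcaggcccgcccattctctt
H2AC18: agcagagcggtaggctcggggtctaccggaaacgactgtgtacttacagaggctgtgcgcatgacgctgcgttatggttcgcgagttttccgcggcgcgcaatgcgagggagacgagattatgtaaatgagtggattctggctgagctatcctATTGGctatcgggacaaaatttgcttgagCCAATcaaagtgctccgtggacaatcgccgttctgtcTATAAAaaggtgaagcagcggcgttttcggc
H4C14: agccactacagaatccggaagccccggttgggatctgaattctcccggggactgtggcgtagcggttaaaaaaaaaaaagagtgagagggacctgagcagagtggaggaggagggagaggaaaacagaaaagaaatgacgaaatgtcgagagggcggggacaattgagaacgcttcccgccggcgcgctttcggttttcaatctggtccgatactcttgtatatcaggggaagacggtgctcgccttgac
H1-2: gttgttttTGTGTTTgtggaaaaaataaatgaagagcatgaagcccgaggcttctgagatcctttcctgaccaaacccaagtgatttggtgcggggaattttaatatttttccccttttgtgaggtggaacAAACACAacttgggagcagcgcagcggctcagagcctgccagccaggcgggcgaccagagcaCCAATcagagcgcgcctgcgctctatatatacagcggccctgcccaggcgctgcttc
They lie at chr1:149886683-149886932, reverse strand, chr1:149842751-149843000, reverse strand, chr1:149832407-149832656, forward strand, and chr6:26056471-26056720, reverse strand.

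H2BC21 and H2AC20 start 236 bases apart and face away from each other, so the stretch shown for H2BC21 is also nearly all of the H2AC20 promoter, read backwards. The pairs H2BC11 and H2AC11, 248 bases apart, and H2BC4 and H2AC6, 246 bases apart, have the same arrangement on chromosome 6. H4C14 and H4C15 are copies whose 250 bases are alike at all 250 positions, and the promoters of H2AC18 and H2AC19 share an unbroken run of 249 bases. Signal from such copies cannot be assigned to 1 of them with certainty, and their values are not independent of each other.

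A promoter entry was found for 29 of the 30 members over the limit. The CCAAT box was in 8 of 8 promoters of H2A, 7 of 7 of H2B, 4 of 4 of H3, 3 of 4 of H1 and 0 of 6 of H4, against 33.0% of 27305 promoters of all genes. The TATA box was in 21 of the 29 and in 11.1% of all promoters. The octamer was in 5 of 8 promoters of H2A and 6 of 7 of H2B and in no other type, against 1.66% of all promoters. The windows of the neighbouring pairs named above overlap almost wholly, so these counts are not of separate sites. The octamers of H2AC20, H2AC11 and H2AC6 are the same sites as those of H2BC21, H2BC11 and H2BC4. The CCAAT and TATA boxes of these pairs are shared in the same way. The H1 box was in 3 of 4 promoters of H1, in no other member, and in 4.95% of all promoters. None of the 4 motifs is present in the H4C14 stretch above, and these matches are descriptions of letters in the window.

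The first comparison asked whether histone genes differed between the arms in the first hours, as the mean of cetuximab minus control over the 7 times from 5 min to 8 h, with 21 arrays in each arm. The values were higher with cetuximab for 27 of the 30 members, and 13 were called higher and 0 lower by limma, with p-values adjusted by Benjamini-Hochberg and a limit of 0.05. Of the genes tested, 4.09% were called higher and 5.96% lower, and 49.7% had a positive difference. The median difference was 0.11 for the members and 0.00 for all genes. By type, 4 of 8 genes of H2A, 4 of 7 of H2B, 4 of 7 of H4, 1 of 4 of H1 and 0 of 4 of H3 were called. The calls fell on brighter probes: of the 16 members with a mean of at least 5, all 16 had a positive difference and 13 were called, where 5.79% of all 8584 genes of that level were called higher; of the 14 dimmer members none was called, where the figure was 0.578% of 4151 genes.

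The differences were small. H4 is the histone whose tail is acetylated at several lysines, and its 7 genes over the limit all encode the same protein. Among them, H4C3 had a mean of 10.66 in controls (lowest 10.03, median 10.58, highest 11.41) and 10.97 with cetuximab (10.60, 10.91 and 11.54). The arms overlapped widely, and the difference was 0.31 ± 0.085 (SE, adjusted p = 0.0103), the largest among the members. H4C14 ran from 5.74 to 6.59 in controls, with a median of 6.16, and from 6.07 to 6.70 with cetuximab, with a median of 6.40; the difference was 0.22 ± 0.039 (adjusted p = 6.84e-05). Its copy H4C15 had medians of 5.66 and 5.92 and a difference of 0.22 ± 0.040 (adjusted p = 4.19e-05). H4C8 had medians of 6.47 and 6.57 and the weakest call of the type, 0.12 ± 0.040 (adjusted p = 0.0352). H4C5, H4C11 and H4C12 were not called, with differences of 0.11, -0.00 and 0.05.

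Among the genes of H2A, which pairs with H2B on the outer faces of the nucleosome, H2AC18 had medians of 8.70 in controls and 8.83 with cetuximab and a difference of 0.20 ± 0.046 (adjusted p = 0.00166). A second probe of H2AC18, with a mean of 6.97, gave a smaller difference of 0.10. H2AC19 differed by 0.16 ± 0.035 (adjusted p = 0.000966), with medians of 8.39 and 8.55. H2AC20, the neighbour of H2BC21, had medians of 7.84 and 7.94 and differed by 0.19 ± 0.032 (adjusted p = 2.08e-05), the lowest adjusted p of all members. H2AC25 was called with 0.18 ± 0.060 (adjusted p = 0.0335), at medians of 6.71 and 6.89. In none of these genes were the arms separate over the whole window, so each difference is one of means. H2AC6, H2AC11, H2AC17 and H2AC21 were not called, with differences of 0.08, 0.03, 0.06 and 0.12.

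Among the genes of H2B, whose C-terminal lysine is ubiquitinated in transcribed chromatin, H2BC12 ran from 10.62 to 10.92 in controls (median 10.79) and from 10.69 to 11.14 with cetuximab (median 10.96), and differed by 0.17 ± 0.031 (adjusted p = 4.31e-05). A second probe of H2BC12 differed by 0.23. H2BC21 differed by 0.20 ± 0.040 (adjusted p = 0.000263), H2BC11 by 0.15 ± 0.046 (adjusted p = 0.0273) and H2BC5 by 0.13 ± 0.034 (adjusted p = 0.00449). The second probe of H2BC5 that lay over the limit gave 0.16, so both genes with a second bright probe of H2B had the same direction on both. H2BC4, H2BC6 and H2BC18 were not called, at 0.04, 0.12 and 0.04.

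H1-2, one of the H1 proteins found in most cell types, was the only called gene of H1. It ran from 8.02 to 8.65 in controls (median 8.39) and from 8.21 to 8.81 with cetuximab (median 8.55), a difference of 0.17 ± 0.042 (adjusted p = 0.00295). H1-1, H1-7 and H1-10 had differences of -0.06, 0.03 and 0.03. In the genes of H3, the histone with the most studied methylated lysines, the differences were 0.09 for H3C13, 0.05 for H3C10, 0.03 for H3C7 and -0.03 for H3C6, all at levels near background.

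At time 0, where the labels already give the arms, 0 of the 30 members were called, 4 had an unadjusted p under 0.05, and 19 had a positive difference with a median of 0.05. Of all genes 1.27% were called higher and 1.21% lower there, 14.4% had an unadjusted p under 0.05 and 52.3% had a positive difference. Among the 13 genes called in the hours, the difference at time 0 was largest for H4C14 (0.30 ± 0.104) and H1-2 (0.29 ± 0.112). These were larger than their 0.22 and 0.17 of the hours after it. H4C15 and H2BC21 had 0.18 at time 0, H2AC19 and H2AC20 0.14, and H2BC5 0.10. H4C3 and H2AC18 had 0.04, H2BC12 -0.003, H4C8 -0.04, H2AC25 -0.07 and H2BC11 -0.08. Measured relative to time 0, the early difference was called for 0 members and for 162 genes of 12735, 1 member had an unadjusted p under 0.05, the median over the members was 0.04, and the median standard error was 0.133 in place of 0.047. H4C14 and H1-2 then turned to -0.08 and -0.11. How much of the early difference was already there at time 0 could therefore not be settled with 3 arrays a group. The count of 13 also moved with single replicate numbers and times: it was 8 without replicate 1, 6 without replicate 2 and 8 without the 4 h arrays.

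**Figure D1:**
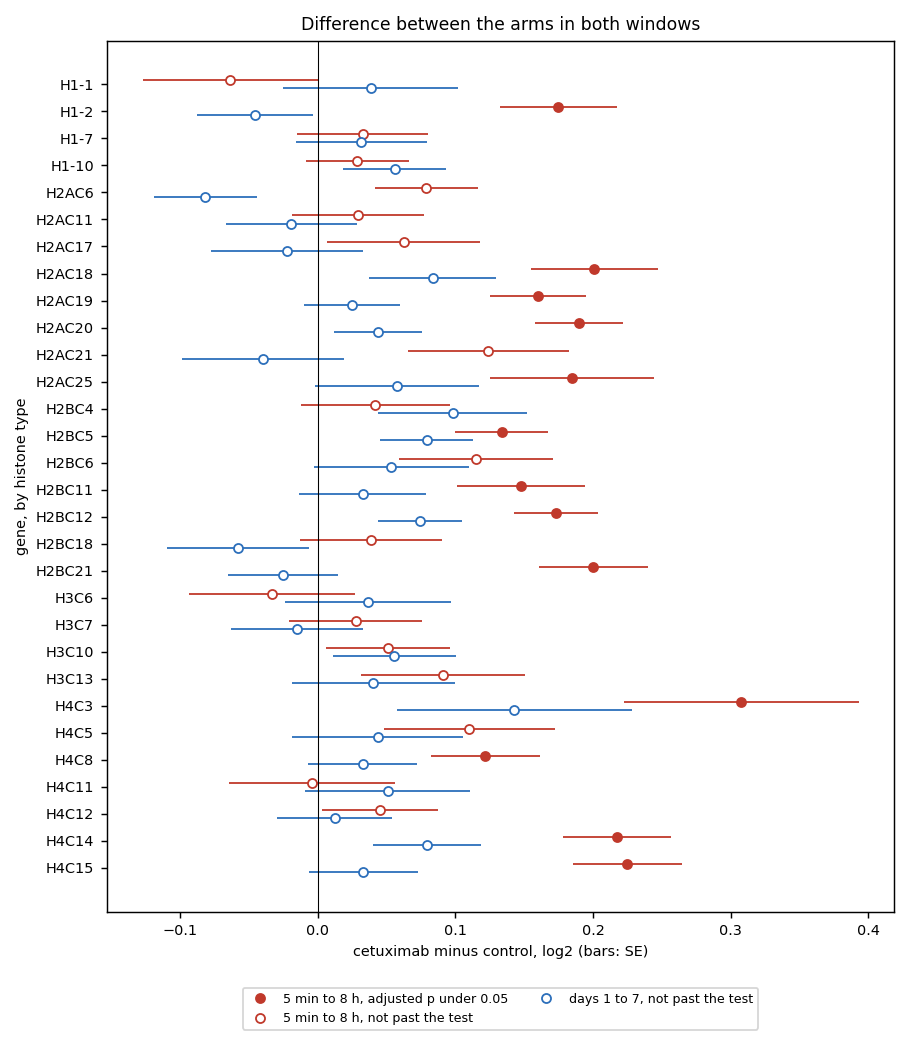
Cetuximab minus control (log2, x axis) for the 30 members over the limit, by histone type, as the mean over 5 min to 8 h (red) and over days 1 to 7 (blue), with bars for the standard error; filled points had an adjusted p under 0.05. Filled red points are 13, all to the right of 0, and no blue point is filled.

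At single times after time 0, 8 of 420 pairs of member and time were called, all higher with cetuximab. Of the 178290 pairs of all genes 1.07% were called, 0.57% higher and 0.498% lower. A positive difference was found in 289 of the 420, and in 50.2% of the pairs of all genes. H2BC21 was first, at 1 h: the 3 control arrays read 7.46, 7.38 and 7.59 and the cetuximab arrays 7.73, 8.05 and 8.22, a difference of 0.52 ± 0.105 (adjusted p = 0.00605), where 0.204% of all genes were called higher. At 2 h the H2BC21 control arrays lay near 8, at 7.79, 7.99 and 8.06, and the cetuximab arrays read 8.04, 8.14 and 8.10. At 4 h the H2BC21 arrays read 7.33, 7.55 and 7.40 in controls and 7.99, 8.08 and 8.08 with cetuximab. The difference was 0.62 ± 0.105 (adjusted p = 0.000131). Relative to their own mean of 0 to 8 h, controls stood at 0.42, -0.16, 0.31 and -0.21 at 30 min, 1 h, 2 h and 4 h. The cetuximab arm stood at 0.09, 0.17, 0.26 and 0.22. Both called differences of H2BC21 thus fell at times when the controls were low, and the cetuximab arm moved little.

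At 4 h, 4 members were called higher, where 0.927% of all genes were. Besides H2BC21 these were its neighbour H2AC20 and the copies H4C14 and H4C15. H2AC20 read 7.81, 7.99 and 7.56 in controls and 8.07, 8.14 and 8.32 with cetuximab (0.39 ± 0.085, adjusted p = 0.00504). H4C14 read 6.04, 6.16 and 5.74 against 6.32, 6.41 and 6.40 (0.40 ± 0.104, adjusted p = 0.0295). H4C15 read 5.36, 5.51 and 5.45 against 5.88, 6.05 and 5.83 (0.48 ± 0.105, adjusted p = 0.00583). H1-2 read 8.39, 8.25 and 8.40 against 8.74, 8.75 and 8.67, and narrowly missed the test (0.37 ± 0.112, adjusted p = 0.0674).

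At 8 h, 2 members were called higher, where 0.298% of all genes were. H2AC18 read 7.42, 7.72 and 7.77 in controls and 8.06, 8.40 and 8.25 with cetuximab (0.61 ± 0.122, adjusted p = 0.00424). H2AC20 read 6.73, 6.85 and 7.03 against 7.37, 7.32 and 7.44 (0.51 ± 0.085, adjusted p = 0.000377). Both genes were on their way down at that time in both arms, and stood higher in the cetuximab arm. The last call was H2BC12 on day 4, with 10.26, 10.17 and 10.31 in controls and 10.64, 10.55 and 10.46 with cetuximab (0.30 ± 0.081, adjusted p = 0.0185), where 1.74% of all genes were called higher. Without replicate 2, or when each time was fitted on its own 6 arrays, none of the 8 was called.

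**Figure D2:**
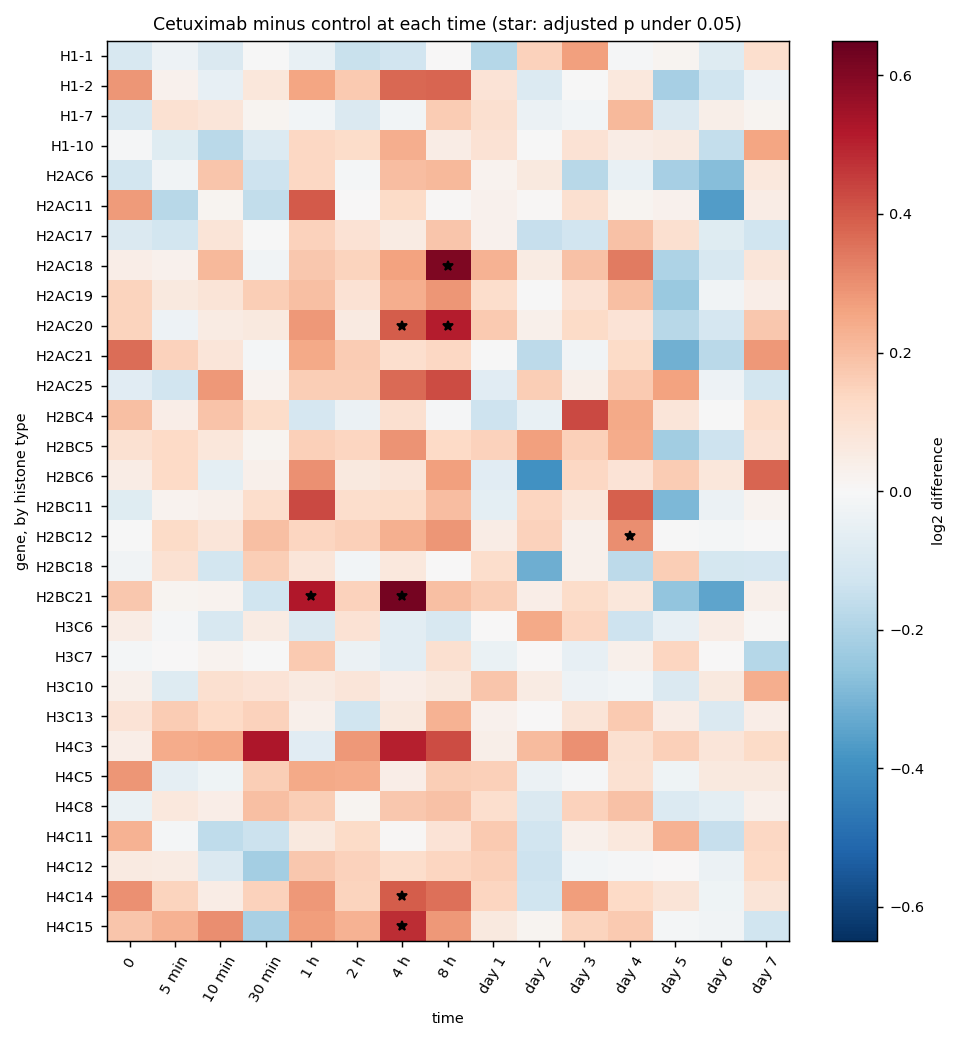
Cetuximab minus control (log2, colour) for each of the 30 members over the limit (rows, by histone type) at each of the 15 times (columns), with a star where the adjusted p was under 0.05. Stars stand at 1 h, 4 h, 8 h and day 4, and red prevails from 1 h to 8 h in the rows of H2A, H2B and H4.

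Over days 1 to 7 no member was called in either direction, although 7.39% of all genes were called higher and 5.96% lower by then. An unadjusted p under 0.05 was found for 4 members, 22 had a positive difference, and the median was 0.04; of all genes, 23.8% had such a p and 51.8% a positive difference. H4C3 had the largest value, 0.14 ± 0.085 (adjusted p = 0.323), and was higher with cetuximab on 7 of 7 days. On day 5 the signs were nearly even, with 14 of the 30 members positive, and on day 6 they leaned the other way, with 7. Among all genes 50.3% and 49.7% were positive on those days. On day 7, 24 of the 30 members were positive. The difference between the windows was itself called for 5 members, all smaller in the days than in the hours, where 2.76% of all genes were called lower and 4.23% higher: H2BC21 by -0.23, H1-2 by -0.22, H4C15 by -0.19, H2AC6 by -0.16 and H2AC20 by -0.15. Leaving out single replicate numbers cut that count to between 1 and 3.

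A far larger movement than that between the arms was the one over time, which both arms shared. The mean of days 1 to 7 minus the mean of the 8 times from 0 to 8 h was called higher for 8 members and lower for 15 in controls, where 35.3% of all genes were called higher and 32.4% lower, and higher for 3 and lower for 15 with cetuximab, where the shares were 35.9% and 32.1%. In number the falls were 15 of 30 in each arm, above the share over all genes; the rises were fewer than that share. H2A and H2B mainly fell, with 6 of 8 and 5 of 7 genes lower in each arm, and H4 was split.

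H2BC21 fell most. Its 24 arrays from 0 to 8 h had a median of 7.87 in controls (6.03 to 8.24) and 8.06 with cetuximab (6.31 to 8.22), and the 21 arrays of days 1 to 7 had medians of 6.17 (5.63 to 7.36) and 6.31 (5.67 to 7.31). The change was -1.23 ± 0.039 in controls (adjusted p = 1.77e-40) and -1.45 ± 0.039 with cetuximab (adjusted p = 7.08e-45). H2AC19, H2AC18 and H2AC20, which lie near it on chromosome 1, also fell. H2AC19 changed by -1.16 and -1.29, H2AC18 by -1.10 and -1.20, and H2AC20 by -1.08 and -1.22, in controls and with cetuximab. All these standard errors were under 0.05. The members on chromosome 1 did not all fall. Of these 10, 4 were called higher and 6 lower in controls, and 1 higher and 6 lower with cetuximab. A second probe of H2AC18 gave -1.13 and -1.23. Smaller falls were called in both arms for H2AC6 (-0.34 and -0.48), H2AC25 (-0.44 and -0.53) and H2AC21 (-0.19 and -0.38), which lies beside H2BC21. They were also called for H2BC4 (-0.42 and -0.38), H2BC5 (-0.38 and -0.43), H2BC6 (-0.28 and -0.33) and H2BC12 (-0.19 and -0.26). The medians over days 1 to 7 lay in the range of background for H2AC21 (4.24 and 4.18) and H2BC6 (4.43 and 4.44).

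In H1, H1-2 changed by -0.54 ± 0.041 in controls and -0.77 ± 0.041 with cetuximab, and H1-10, a replication-independent H1 on chromosome 3, by -0.45 ± 0.036 and -0.41 ± 0.036. The control medians fell from 8.38 to 7.83 for H1-2 and from 7.30 to 6.79 for H1-10. H1-1 and H1-7 did not pass in either arm. In H3, only H3C13 passed in both arms, with rises of 0.21 ± 0.058 and 0.16 ± 0.058 at levels under 5.3 on every array, and the other 3 passed in neither; the 2 dimmer probes of H3C13 gave -0.02 and 0.10 in controls, so its rise rests on 1 probe.

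The H4 genes went in opposite directions. H4C3 rose from a median of 10.60 (10.03 to 11.51) to 11.79 (11.18 to 12.60) in controls and from 10.92 (10.60 to 11.54) to 11.96 (11.69 to 12.69) with cetuximab. With cetuximab no array of the days lay as low as any array of the hours, and the rises were 1.16 ± 0.083 (adjusted p = 6.63e-21) and 1.03 ± 0.083 (adjusted p = 1.84e-18). H4C12 rose by 0.41 ± 0.041 and 0.37 ± 0.041, from control medians of 5.21 to 5.64. H4C8 fell from a control median of 6.50 to 5.37, by -1.02 ± 0.038 in controls and -1.08 ± 0.038 with cetuximab, and H4C5 fell by -0.19 and -0.28 at levels near background. H4C14 and H4C15 rose in controls, by 0.20 and 0.17, and with cetuximab gave 0.05 and -0.02, short of the test. So genes for 1 and the same protein did not move together.

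**Figure D3:**
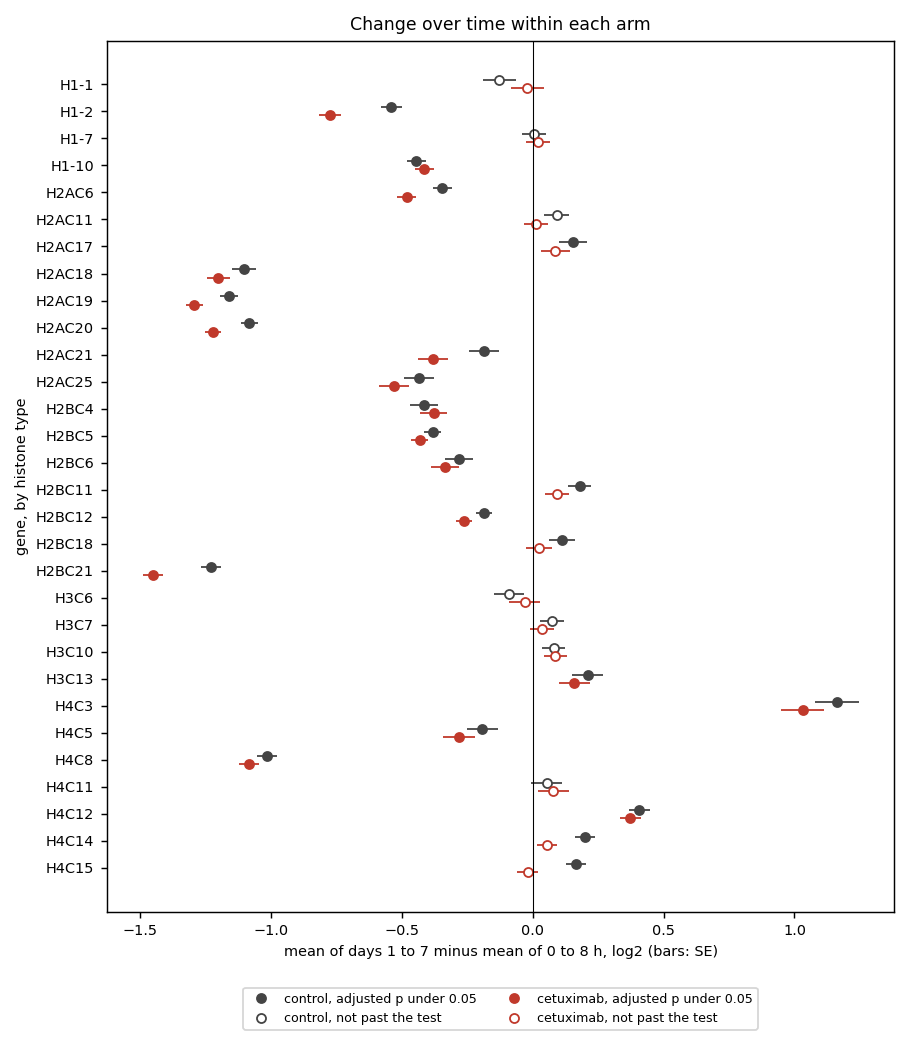
Mean of days 1 to 7 minus mean of 0 to 8 h (log2, x axis) for the 30 members in controls (grey) and with cetuximab (red), with bars for the standard error; filled points had an adjusted p under 0.05. H4C3 stands at 1.16 and 1.03 on the right, and H2BC21 at -1.23 and -1.45 on the left.

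The course had 3 turns, and the contrasts for them were chosen after the values had been seen. The first turn came at 8 h, where 18 members in controls and 12 with cetuximab were lower than over 0 to 4 h and 0 were higher in either arm. Over all genes 20.9% and 19.9% were lower and 24.5% and 23.6% higher. H2BC21 dropped most, by -1.68 ± 0.080 in both arms. The 21 control arrays from 0 to 4 h ran from 7.33 to 8.24 with a median of 7.93, and the 8 h arrays read 6.03, 6.24 and 6.22. With cetuximab the earlier arrays ran from 7.73 to 8.22 with a median of 8.08, and those of 8 h read 6.31, 6.42 and 6.35. H2AC25 gave -1.15 and -0.84, H2AC18 -1.10 and -0.61, H2AC6 -0.98 and -0.80, H2AC20 -0.94 and -0.57, H2AC19 -0.90 and -0.75, and H1-10 -0.79 and -0.76. All 6 genes fell in both arms. Among the 7 H4 genes the fall of H4C8 was the largest, at -0.57 and -0.46, and H4C3 gave -0.10 and 0.07, not called. Without replicate 2 the count in controls was 11.

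The second turn was between 8 h and day 1. In controls 9 members were higher and 6 lower on day 1 (16.6% and 17.1% of all genes), and with cetuximab 7 were higher and 7 lower (18.7% and 16.9%). H4C3 made the largest move of any member: the control arrays went from 11.03, 10.58 and 10.24 to 12.30, 12.60 and 12.59, and the cetuximab arrays from 10.92, 11.23 and 10.97 to 12.69, 12.38 and 12.53. The rise was 1.88 ± 0.225 (adjusted p = 1.57e-10) and 1.50 ± 0.225 (adjusted p = 9.27e-08), and day 1 was the highest time of H4C3 in both arms. H4C14 rose by 0.71 and 0.49, H2AC6 by 0.66 and 0.48, and H2BC11 by 0.61 and 0.34. H2AC19 fell further, by -0.53 and -0.70, as did H4C8, by -0.53 and -0.61, and H2AC18, by -0.40 and -0.78. Without replicate 2 the count with cetuximab was 9.

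The third turn was a recovery. On days 5 to 7 against days 2 to 4, 16 members were higher and 1, H2BC6, lower in controls, where 23.5% and 20.8% of all genes were. With cetuximab 15 were higher and 0 lower, where 23.2% and 21.7% of all genes were. H2BC5 rose most, by 1.21 ± 0.051 and 0.90 ± 0.051; its control arrays read 7.99, 8.00 and 7.97 on day 4 and 9.27, 9.18 and 9.21 on day 7. H2BC21 rose by 1.13 and 0.86, H2AC18 by 1.04 and 0.77, H2AC19 by 0.89 and 0.72, H2AC6 by 0.85 and 0.76, H4C8 by 0.79 and 0.66, and H2BC12 by 0.72 and 0.55. In each of these 7 genes the rise was the smaller with cetuximab, a difference that was not tested. H4C3 gave 0.00 and -0.08 and was not called.

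From day 1 to day 7, 11 members rose and 1 fell in controls (22.0% and 18.7% of all genes), and 12 rose and 1 fell with cetuximab (21.1% and 19.1%). The gene that fell was H4C3 in both arms, by -0.92 ± 0.225 and -0.83 ± 0.225, to 11.63, 11.45 and 11.66 in controls and 11.72, 11.70 and 11.69 with cetuximab on day 7. H2BC12 and H2BC5 were highest on day 7 in both arms, above their level at time 0: H2BC5 had means of 9.22 and 9.31 on day 7, against 9.04 and 9.14 at time 0, and H2BC12 had 11.13 in both arms against 10.97. These steps from time 0 were not tested. H2BC21, H2AC18 and H2AC20 were still lower on day 7 than at time 0 in controls; the means were 7.20 against 7.95 for H2BC21, 8.19 against 8.71 for H2AC18 and 7.16 against 7.63 for H2AC20.

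**Figure D4:**
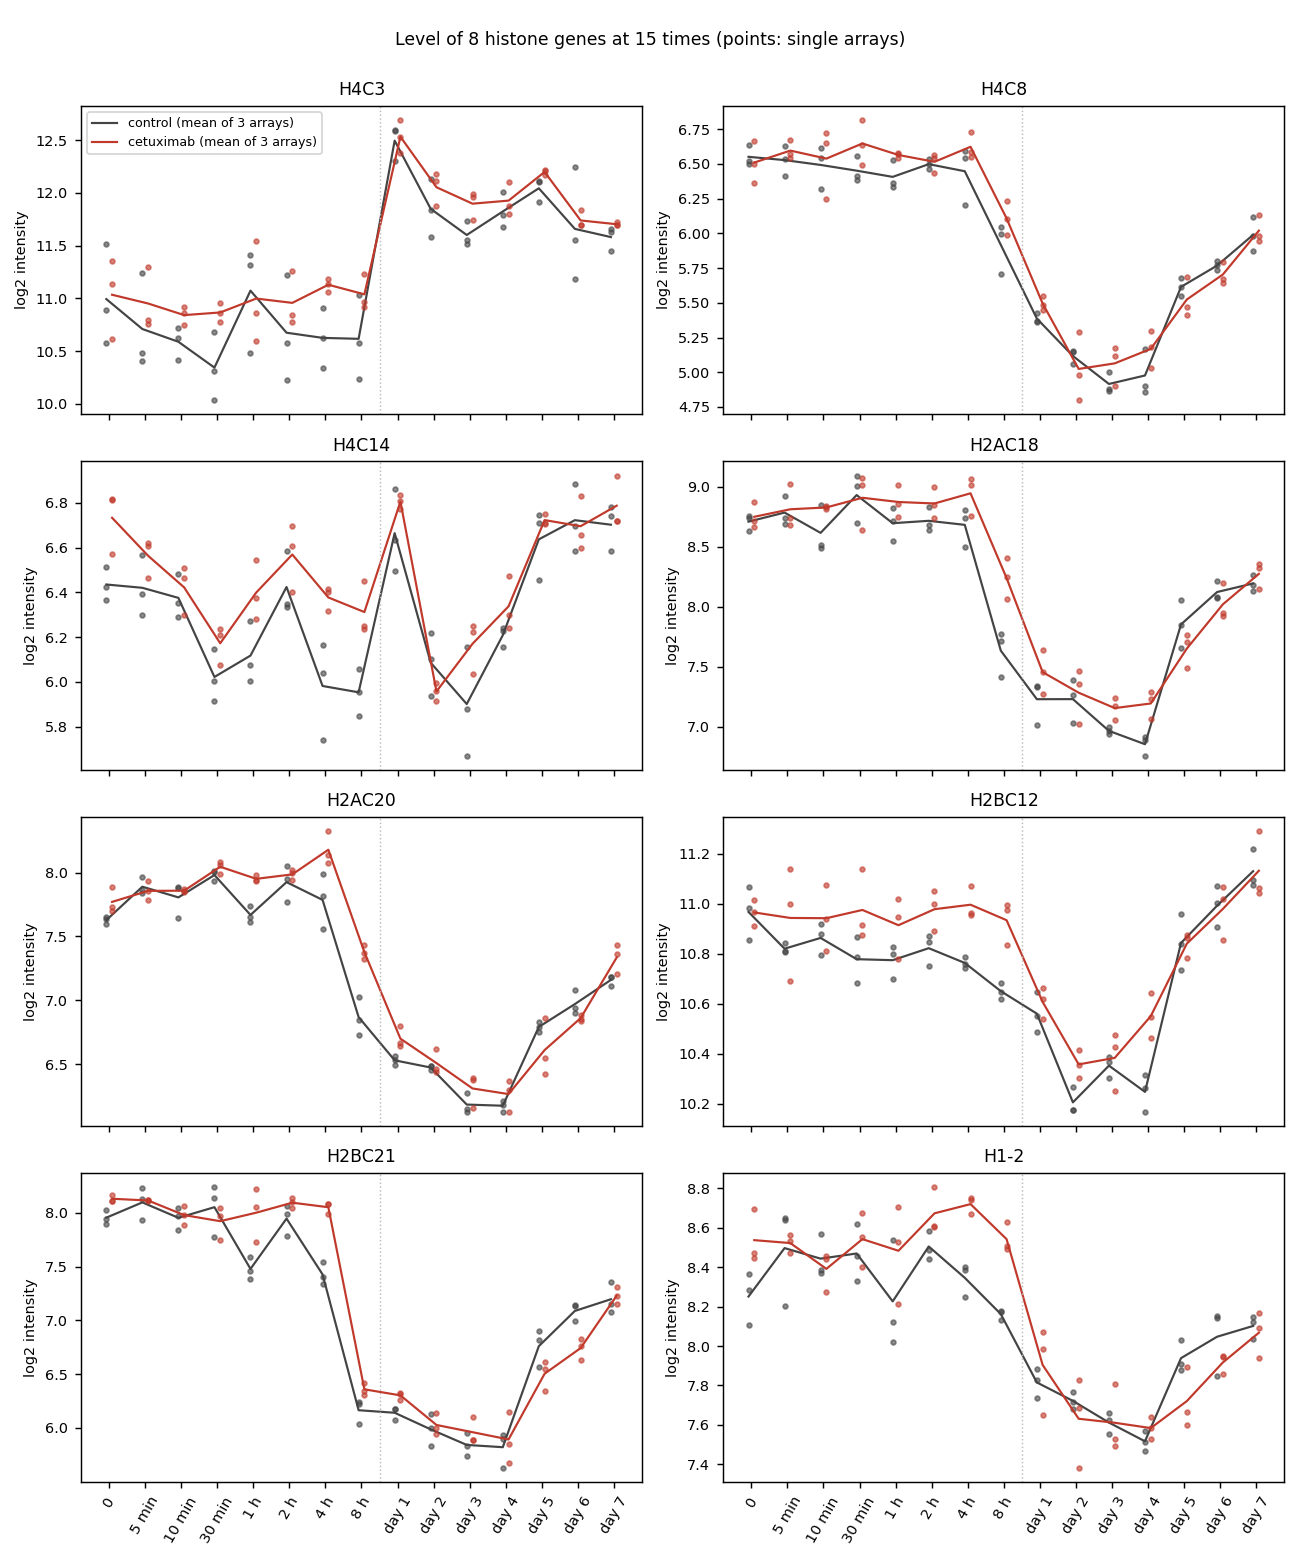
Level (log2 intensity, y axis, own scale in each panel) of 8 histone genes at the 15 times (x axis, not to scale), with points for single arrays and lines for the means of 3 arrays in controls (grey) and with cetuximab (red). H4C3 jumps between 8 h and day 1, and the other 7 genes are low from day 2 to day 4 and higher by day 7.

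Genes of DNA replication ran the other way from most members at 8 h and over the days, but not in every contrast. Of 24 listed S phase genes 23 were measured, and all 23 were higher in the days than from 0 to 8 h in both arms. The medians were 0.56 in controls and 0.62 with cetuximab, where 35.3% and 35.9% of all genes were higher. CCNA2, the cyclin of S phase and G2, rose by 1.70 in controls and TK1, thymidine kinase, by 1.59. At 8 h, when 18 and 12 histone genes were lower, 17 and 15 of the 23 were higher and 0 lower. The shares of all genes that were higher were 24.5% and 23.6%. On days 5 to 7 against days 2 to 4, when 16 and 15 histone genes were higher, 21 of the 23 were lower in each arm. The shares of all genes that were lower were 20.8% and 21.7%. From 8 h to day 1, however, 16 and 19 of the 23 were higher and 0 lower, and H4C3 was higher too. Among all genes 16.6% and 18.7% were higher. From day 1 to day 7, 19 and 21 of the 23 were lower and 0 higher, again the direction of H4C3. Among all genes 18.7% and 19.1% were lower. Between the arms, 1 of the 23 was higher in the first hours (PRIM1, a primase subunit, 0.12) and 2 were lower (UHRF1, a reader of hemimethylated DNA, at -0.20, and RRM2, of ribonucleotide reductase, at -0.15). Of all genes 4.09% and 5.96% were higher and lower in those hours. Over the days 4 were higher and 2 lower, where 7.39% and 5.96% of all genes were, the latter being UHRF1 (-0.19) and RRM2 (-0.13). Any part of the cell cycle in the histone values was not tested.

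**Figure D5:**
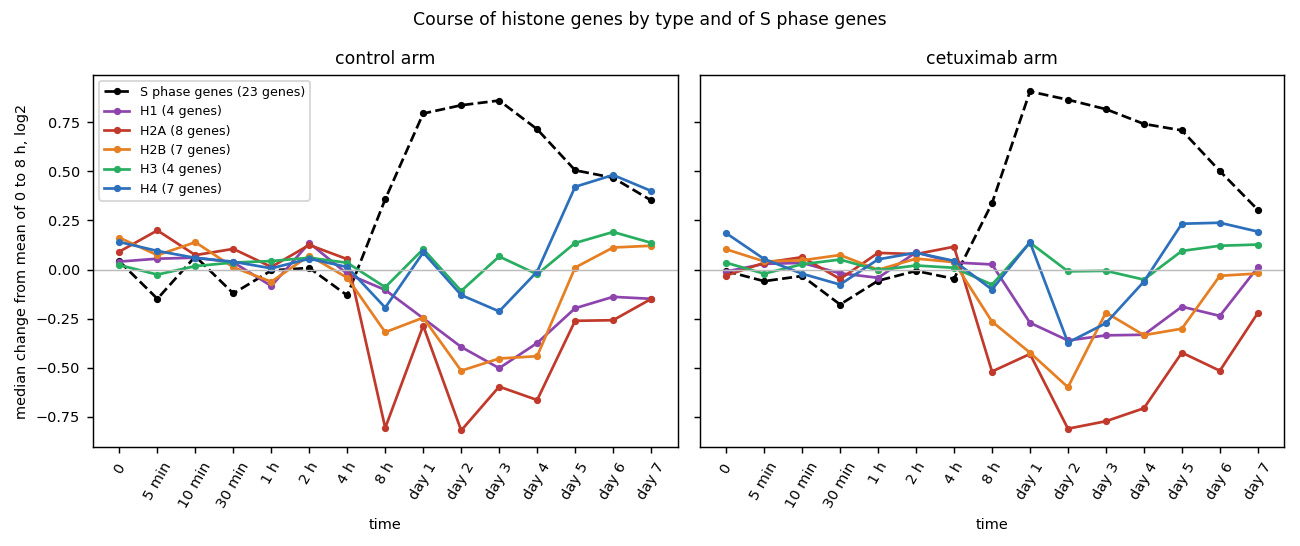
Median change from the mean of 0 to 8 h in the same arm (log2, y axis) at the 15 times (x axis, not to scale) for the members of each histone type and for 23 S phase genes (dashed), in controls (left) and with cetuximab (right). The S phase genes rise to 0.86 in controls and 0.91 with cetuximab, while H2A falls to -0.82 and -0.81 on day 2.

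Histone variants, which are made outside S phase as well and from mRNAs with poly(A) tails, were measured for 10 of 12 listed genes, without H1-10, which is counted above. None was called between the arms in the hours or over the days, and the largest early values were -0.11 for MACROH2A2 and 0.08 for H2AJ. Over time 6 rose and 2 fell in controls (35.3% and 32.4% of all genes), and 5 rose and 3 fell with cetuximab (35.9% and 32.1%); CENPA, the H3 of centromeres, rose by 1.83 in controls and H3-3B, which encodes H3.3, fell by -1.39. Of 23 listed factors for the transcription and 3' end formation of histone mRNAs 20 were measured. In the first hours only SRRT was called, at -0.08, and over the days only CSTF2, at -0.13. Of all genes 4.09% were called higher and 5.96% lower in the hours, and 7.39% and 5.96% over the days. SLBP, named for its role, gave 0.08 ± 0.12 in the hours. Over time 10 of the 20 rose and 3 fell in each arm. Of all genes 35.3% rose and 32.4% fell in controls, and 35.9% and 32.1% with cetuximab. In controls CDK2 changed by 0.60 and NCBP2, a subunit of the cap-binding complex, by -0.52. Of 22 listed histone chaperones 21 were measured. In the hours 1 was higher with cetuximab and 3 were lower, where 4.09% and 5.96% of all genes were. The higher one was NASP, which carries H3 and H4, by 0.11. The lower ones were IPO4, an importin, at -0.16, UBN1 at -0.15 and NAP1L4 at -0.10. Over the days NASP (0.12) and CHAF1B (0.13) were higher and IPO4 (-0.16) was lower, where 7.39% and 5.96% of all genes were. HJURP, the chaperone of CENPA, and ASF1B rose in controls by 1.36 and 1.10.

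Of the 42 members under the limit none was called in the first hours when all 20036 genes were tested, with differences from -0.13 to 0.12; of all 7301 genes under the limit, 0.219% were called in either direction. H2BC9 was called over the days, where 0.822% of the 7301 were. Over time 5 and 7 of the 42 were called in controls and with cetuximab, where 5.26% and 6.07% of the 7301 were, with changes from -0.15 to 0.22 and from -0.14 to 0.22. At these levels a change cannot be told from background with the arrays used.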

How the data were processed

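The authors deposited 1 value per probe and array; they ran from 0.26 to 13.76 and are taken as log2 intensity, as the labels give no base. Array medians ran from 4.29 to 4.36, so the deposited log2 values were already normalised between arrays and were used as they are; the submitters' processing notes name limma, and the background correction and normalisation method, not given in the sources used here, could change the levels.

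Of 47292 probes 30096 carried 1 gene symbol, and the probe with the highest mean stood for each gene. Genes with a mean under 4.24 were left out, which left 12735. One mean per group (30 groups) was fitted as a linear model to all 90 arrays (limma 3.58.1 in R 4.3.3, 60 residual degrees of freedom), two-sided, with Benjamini-Hochberg adjustment over all genes within each contrast, and the number of arrays limits the precision. The analysis was tested on simulated data. Every member over 4.24 is named, with fuller values for those called in a window or over time in both arms and for the largest changes of each type, and of other lists the 2 largest changes. The members, windows and lists of variants, factors, chaperones and S phase genes were chosen with earlier results of these data known. Promoters and motif counts came from RefSeq sequences of GRCh38.p14. Alternatives covered normalisation, the limit on dim probes, probe averaging, array weights, the prior, replicate numbers, single times and the arrays fitted.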

Additional observations from a re-analysis of the deposited data

Results flagged for a closer look

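For 5 histone genes the difference between the arms was not the same in the 2 windows, by a test of late minus early in the limma fit. The value was -0.225 for H2BC21 (adjusted p = 0.00506), -0.220 for H1-2 (adjusted p = 0.0107), -0.192 for H4C15 (adjusted p = 0.0205), -0.161 for H2AC6 (adjusted p = 0.0482) and -0.146 for H2AC20 (adjusted p = 0.0324). Of these, H2BC21, H1-2, H4C15 and H2AC20 were called higher with cetuximab in the hours; H2AC6 was called in neither window, with 0.08 in the hours and -0.08 over the days. H2BC21 lost its call without replicate 2, H1-2 without replicate 1 or 3, H4C15 without replicate 1 or 2, and H2AC6 and H2AC20 without each of the 4 numbers in turn.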

How the results depend on the processing

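Changes over time were the steadiest results. No alternative turned the sign of a member called over days 1 to 7 against 0 to 8 h or on day 7 against day 1, in either arm. The 23 calls in controls over time were all kept under 8 of the alternatives tried and fell to 20 at the lowest, without replicate 3. Normalising again moved the median of all genes by under 0.01.

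The 13 early calls became 0 relative to time 0, 8 in the window without 4 h, and 6 to 10 without single replicate numbers. Relative to time 0 the median over the members went from 0.11 to 0.04, and the median standard error from 0.047 to 0.133. The cause of the lost calls was not tested. H1-2 turned from 0.17 to -0.11 and H4C14 from 0.22 to -0.081 relative to time 0. H4C3 lost its call without replicate 2 (adjusted p = 0.148) or 3 (adjusted p = 0.121), and H2AC25, H2BC11 and H4C8 under 7 or more alternatives each. The 0 late calls became 1 with no limit on dim probes, with the mean of probes, in the window without day 5 and in that without day 6, and 0 to 1 without single replicate numbers. The 0 calls at time 0 became 1 with array weights. The 8 calls at single times became 13 with array weights and ran from 0 to 8 without single replicate numbers. On only the arrays compared, a fit with fewer degrees of freedom, they became 0, and the cause was not tested. The 5 calls of late minus early ran from 1 to 3 without single replicate numbers. For the turns chosen after the values were seen, leaving out replicate numbers gave at the lowest 11 of 18 calls for 8 h in controls and 9 of 14 for day 1 against 8 h with cetuximab.

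Replicate numbers are shared by the arms. The labels name no shared culture or day, and the correlation passed 0.1 in 26 of 43 pairs of same-numbered arrays (median 0.13), not in all of them, so the numbers were not taken as pairing. In 37 of the 43 pairs the arrays correlated best with their own number, a hint from the data and not from the design that they may pair. With the replicate block the early count stayed at 13 and the late count at 0, late minus early gave 6, and single times gave 7 with a fixed and 13 with a random replicate block. Signal near background limits all 4 H3 genes and the 42 genes under the limit.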
